A study of Mus musculus with 10 samples.

Results

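The genes described here are the mouse zinc finger genes named Zfp with a number and nothing after it (Zfp1, Zfp932), taken where their mean expression over 6 RNA-seq libraries was at least 1 FPKM. FPKM divides the fragments of a gene by the length of its transcript and by the size of the library, so levels of different genes can be set side by side. Of 252 such symbols in a table of 11228 genes, 243 met the rule. The 9 that did not, Zfp433, Zfp429, Zfp708, Zfp820, Zfp446, Zfp607, Zfp689, Zfp964 and Zfp599, had means between 0.695 and 0.985 FPKM. The name was the basis of choice. No direction of change entered the rule, but the set was chosen with earlier results of these data known.

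The libraries came from mouse myotubes, multinucleate muscle cells, differentiated in vitro for 2 days. Charme, a muscle long non-coding RNA, was depleted with the antisense gapmer GAP-2 in 2 libraries and with GAP-2/3 in 2 libraries, and 2 control libraries received the scrambled gapmer GAP-scr. All 3 groups were therefore treated with a gapmer, and the labels name neither the cells that gave rise to the myotubes nor separate cultures for the 2 libraries of a group. A p-value here therefore reflects how far the 2 libraries of a group lie apart, and that distance may be technical. Charme itself is not analysed here, and the groups rest on the labels. The myotube identity of the cultures was checked on 8 markers, all of them in the table, whose summed level was 6190 to 6270 FPKM in GAP-2, 6540 to 7060 FPKM in GAP-2/3 and 10500 to 11300 FPKM in GAP-scr libraries. Of 6 fibroblast markers 4 were in the table, at a summed 1420 to 1710 FPKM in GAP-2, 1020 to 1200 FPKM in GAP-2/3 and 1600 to 1610 FPKM in GAP-scr libraries. Of 5 macrophage markers the table held Cd68 alone, at 2.43 to 3.54 FPKM in GAP-2, 0.834 to 0.962 FPKM in GAP-2/3 and 0.374 to 0.917 FPKM in GAP-scr libraries. The 4 endothelial and 4 adipocyte markers were not listed. The myotube sum therefore moved with the knock-down, and its part in the changes of the Zfp genes was not tested. In whole cultures, fewer cells of a type and less RNA per cell cannot be told apart.

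A zinc finger of the C2H2 kind is a short loop of protein held by a zinc ion, and several in a row read a stretch of DNA or, in a few proteins, RNA. Most numbered Zfp genes encode such arrays, many of them joined to a KRAB box that recruits the corepressor Trim28, also named KAP1, which brings histone deacetylases and the histone methyltransferase Setdb1 to retroelements and imprinted sites. KRAB zinc finger genes have multiplied by local duplication and lie in clusters on several mouse chromosomes. The number in a Zfp symbol is not a class, and the set also holds ubiquitin ligases, RNA-binding proteins and developmental regulators.

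The Zfp genes were weakly expressed. Their mean level had a median of 4.69 FPKM, with quartiles of 2.29 and 8.08 FPKM, beside a median of 13.2 FPKM for the 10993 genes tested. The lowest was at 1.03 FPKM and the highest, Zfp207, at 100 FPKM. Within each library the median Zfp gene had 4.62 and 4.72 FPKM in GAP-2, 5.45 and 5.16 FPKM in GAP-2/3, and 4.19 and 3.86 FPKM in GAP-scr. The 4 knock-down libraries were thus above both control libraries, and the GAP-2/3 libraries were above the GAP-2 libraries. The median of all tested genes was closer together, at 13.2 and 13.1 FPKM in GAP-2, 13.3 and 13.8 FPKM in GAP-2/3, and 12.7 and 12.3 FPKM in GAP-scr. The Zfp median came to 0.351 and 0.359 of that of all genes in GAP-2 libraries, to 0.41 and 0.373 in GAP-2/3 libraries, and to 0.33 and 0.313 in GAP-scr libraries. As a share of all FPKM, the 243 genes held 0.299% and 0.304% in GAP-2 libraries, 0.329% and 0.323% in GAP-2/3 libraries, and 0.284% and 0.265% in GAP-scr libraries. The ribosomal RNA precursor Rn45s was high in replicate A of GAP-2 (4090 FPKM) and of GAP-scr (3390 FPKM) and at 93.2 to 176 FPKM in the other 4 libraries.

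The first comparison set the mean of both knock-down arms against GAP-scr. Changes are differences of log2(FPKM + 1), a scale that compresses the changes of genes at low levels, and were tested with limma and Benjamini-Hochberg adjustment over all genes tested, at a threshold of 0.05. Of the 243 Zfp genes, 103 (42.4%) were higher and 7 (2.88%) lower, beside a background of 24.5% of all tested genes higher and 9.57% lower. In 124 of them (51%) all 4 knock-down libraries lay above both GAP-scr libraries, beside 31.9% of all tested genes, and in 13 (5.35%) all 4 lay below, beside 14%. A change above 0, with no threshold, was seen in 198 (81.5%), beside 62.6%. The changes were small. Their median was 0.28, with quartiles of 0.06 and 0.43 and a range of -0.51 to 0.85, beside a median of 0.10 over all tested genes, and no Zfp gene changed by 2-fold or more on this scale. The share of Zfp genes called lower stood below its background and the share called higher above it. The split depended on the scaling: after quantile normalization 50 Zfp genes were higher and 13 lower, beside 1568 and 1695 of all tested genes (14.3% higher), and the median change of all genes moved to 0.00.

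The median change of the Zfp genes was then set against that of the other tested genes of like FPKM. The other genes were taken in 5 windows of mean FPKM, and their window medians, averaged with the numbers of Zfp genes as weights, came to 0.10, so that the Zfp median exceeded them by 0.17. From 1 to 2 FPKM, 51 Zfp genes had a median of 0.28 and the 775 other genes 0.12, and 41.2% of the Zfp genes and 24.6% of the others were called higher. From 2 to 5 FPKM, 76 Zfp genes had a median of 0.28 against 0.11, with 43.4% and 23.6% called higher. From 5 to 10 FPKM, 69 Zfp genes had a median of 0.20 against 0.10, with 42% and 23.8% called higher. From 10 to 20 FPKM, 35 Zfp genes had a median of 0.30 against 0.07, with 48.6% and 23% called higher. At 20 FPKM and above, 12 Zfp genes had a median of 0.21 against 0.10, and 25% of each were called higher. The median replicate SD was 0.091 for Zfp genes and 0.122 for other genes at 1 to 2 FPKM, and 0.111 and 0.108 at 20 FPKM and above. In each of the 5 windows the Zfp median was the higher, and the share called higher was so in all but the top window.

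**Figure D1:**
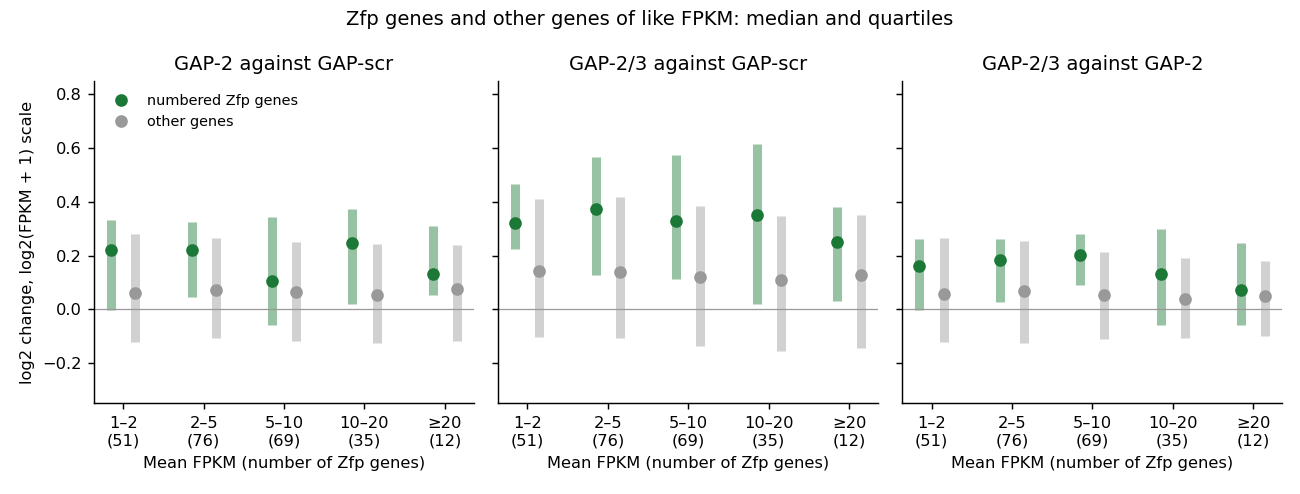
Median log2 change (point) and quartiles (bar) of the numbered Zfp genes in green and of the other tested genes in grey, in 5 windows of mean FPKM, for GAP-2 against GAP-scr, GAP-2/3 against GAP-scr and GAP-2/3 against GAP-2; the vertical axis is the difference on the log2(FPKM + 1) scale. The green point lies above the grey one in each window and panel, for example 0.37 against 0.14 at 2 to 5 FPKM for GAP-2/3 against GAP-scr, while the bars overlap.

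The GAP-2/3 arm carried most of the calls. Against GAP-scr, GAP-2/3 had 118 Zfp genes higher (48.6%) and 6 lower (2.47%), beside 28% and 11.3% of all tested genes. GAP-2 had 33 higher (13.6%) and 3 lower (1.23%), beside 10.4% and 4.18%. The median change was 0.33 with GAP-2/3 and 0.19 with GAP-2, against 0.13 and 0.07 for other genes of like FPKM. The call was made in both arms for 29 higher Zfp genes, in GAP-2/3 alone for 89 and in GAP-2 alone for 4; both arms share the same GAP-scr libraries. After quantile normalization the higher and lower Zfp genes numbered 65 (26.7%) and 20 with GAP-2/3, beside 1820 (16.6%) and 1960 of all tested genes. With GAP-2 they numbered 4 and 4, where the share of Zfp genes higher (1.65%) was below that of all genes (6.29%). The GAP-2 count depended on single libraries, with 66 called when GAP-scr replicate A was left out, 6 when GAP-2 replicate A was and 0 when GAP-2 replicate B was. The share of Zfp genes higher was 26.3% without GAP-scr replicate A, above the 17.1% of all genes. It was below that of all genes in each of the other fits with 1 library left out, at 2.47% beside 4.08% without GAP-2 replicate A, 0% beside 3.21% without GAP-2 replicate B, 4.94% beside 8.37% without GAP-scr replicate B, 4.94% beside 6.2% without GAP-2/3 replicate A and 5.35% beside 6.19% without GAP-2/3 replicate B. With GAP-2 and GAP-scr fitted alone it was 4.94% beside 6.14%. The count for both arms was 110 in either direction. It fell when GAP-2/3 replicate A, GAP-2 replicate B or GAP-scr replicate B was left out. The calls over all tested genes fell in the same fits, and the share of Zfp genes higher stayed above that of all genes.

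A direct test of GAP-2/3 against GAP-2 called 15 Zfp genes higher (6.17%) and 1 lower (0.412%), beside 6.5% and 3.65% of all tested genes, so the share called higher stood near its background. In 142 Zfp genes (58.4%) both GAP-2/3 libraries were above both GAP-2 libraries, beside 38.5% of all genes, and in 27 (11.1%) both were below, beside 23%. The change was above 0 in 189 (77.8%), beside 58.8%, with a median of 0.18 against 0.06 for other genes of like FPKM. Zfp422 had 5.67 and 5.16 FPKM in GAP-2/3, against 3.23 and 3.02 FPKM in GAP-2 libraries, a change of 0.64 ± 0.13 (SE; limma adjusted p = 0.0113). In GAP-scr it had 3.30 and 4.15 FPKM, so the GAP-2 libraries were the lowest of the 3 groups. Zfp637 had 26.2 and 27.3 FPKM in GAP-2/3, against 17.8 and 18.1 FPKM in GAP-2 libraries, a change of 0.55 ± 0.11 (limma adjusted p = 0.0099), and 16.8 and 15.3 FPKM in GAP-scr libraries. Zfp629 (0.61), Zfp862 (0.61) and Zfp715 (0.52) were also among the genes higher with GAP-2/3. After quantile normalization 7 (2.88%) were higher and 3 lower, beside 493 (4.48%) and 503 of all tested genes. None of the calls between the arms was made when GAP-2 replicate A, GAP-2/3 replicate A or GAP-2/3 replicate B was left out.

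On the log2(FPKM + 1) scale, which compresses changes at low levels, Zfp932 had the largest change over both arms. Zfp947, described below, rose by a larger factor from a lower level. In the mouse Zfp932 is known as a KRAB zinc finger protein that binds endogenous retroviruses. Its level was 7.29 and 8.01 FPKM in GAP-2 and 11.3 and 10.2 FPKM in GAP-2/3, against 4.19 and 5.02 FPKM in GAP-scr libraries. The 3 groups did not overlap, with GAP-2/3 the highest and GAP-scr the lowest. The change was 0.85 ± 0.11 over both arms (SE; limma adjusted p = 0.000319), 0.63 with GAP-2 and 1.07 with GAP-2/3, and the 2 arms differed by 0.44 (adjusted p = 0.049). Zfp35 showed the same order, with 4.65 and 5.87 FPKM in GAP-2 and 8.18 and 7.63 FPKM in GAP-2/3, against 3.07 and 3.54 FPKM in GAP-scr libraries. Its change was 0.79 ± 0.12 (adjusted p = 0.000709) over both arms and 1.05 with GAP-2/3, and with Zfp932 it made up the 2 Zfp genes that exceeded 2-fold on this scale in an arm.

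Zfp260, which activates cardiac genes in rodent heart cells, was the most abundant of the 12 genes with the highest changes. It had 25 and 27.8 FPKM in GAP-2 and 37.1 and 31 FPKM in GAP-2/3, against 19.9 and 17.9 FPKM in GAP-scr libraries, a change of 0.64 ± 0.11 (limma adjusted p = 0.00159). Zfp862 is now annotated as the transcribed pseudogene Zfp862-ps. Its level was 9.06 and 9.58 FPKM in GAP-2 and 13.1 and 16.7 FPKM in GAP-2/3, against 5.81 and 8.32 FPKM in GAP-scr libraries. The GAP-2/3 libraries stood clear of the other 2 groups, and the change of 0.37 with GAP-2 alone did not pass (adjusted p = 0.137). The remaining 8 of the 12, Zfp946, Zfp51, Zfp788, Zfp942, Zfp947, Zfp719, Zfp52 and Zfp800, changed by 0.65 to 0.79 over both arms, and in each all 4 knock-down libraries lay above both GAP-scr libraries. None of the 12 lost its call over both arms when any 1 library was left out.

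**Figure D2:**
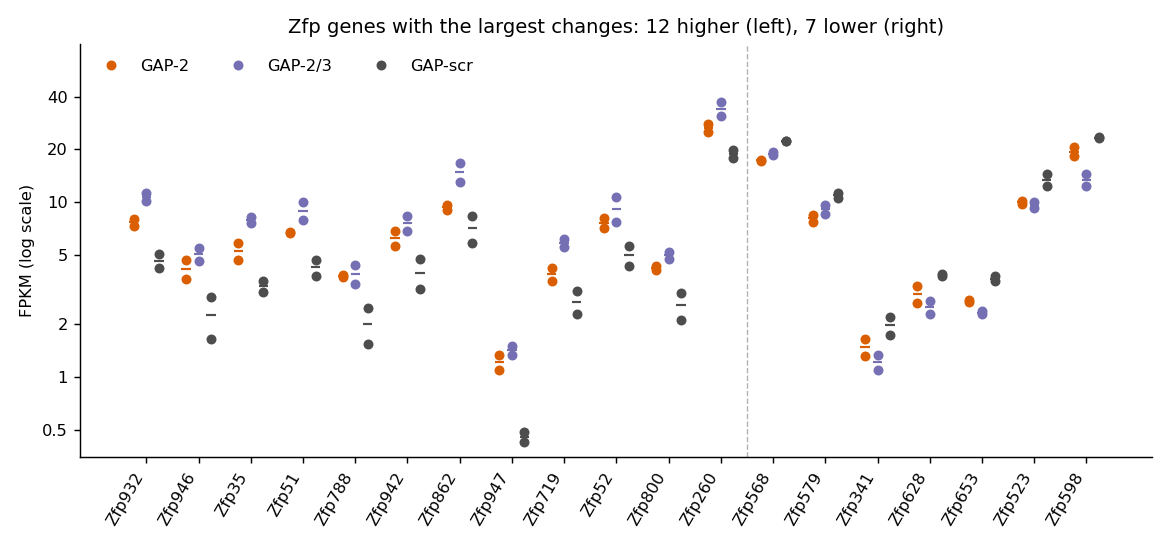
FPKM (log scale) of the 12 numbered Zfp genes with the highest and the 7 with the lowest change over both arms among those past the threshold, with a point for each library and a short line at the mean of 2. The GAP-2 and GAP-2/3 points of the 12 genes on the left lie above the GAP-scr points, as in Zfp932 with 10.2 and 11.3 against 4.19 and 5.02 FPKM, and those of the 7 genes on the right lie below them.

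The 7 genes called lower over both arms were Zfp598, Zfp523, Zfp653, Zfp628, Zfp341, Zfp579 and Zfp568. Zfp598, a ubiquitin ligase that marks ribosomes stalled by collision, had the lowest change on this scale. It had 20.5 and 18.3 FPKM in GAP-2 and 12.4 and 14.4 FPKM in GAP-2/3, against 23.1 and 23.5 FPKM in GAP-scr libraries. The groups did not overlap. The change was -0.51 ± 0.10 (SE; limma adjusted p = 0.00399) over both arms, -0.26 with GAP-2 (adjusted p = 0.162) and -0.76 with GAP-2/3 (adjusted p = 0.000801). The arms differed by -0.50 (adjusted p = 0.0214), which made Zfp598 the only Zfp gene called lower in GAP-2/3 than in GAP-2. It was also the only one of the 7 whose call over both arms held with each library left out in turn.

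Zfp523, a close relative of the promoter-binding activator Zfp143, had 10.1 and 9.78 FPKM in GAP-2 and 9.21 and 9.98 FPKM in GAP-2/3, against 12.4 and 14.5 FPKM in GAP-scr libraries. Both arms were alike here, at -0.40 with GAP-2 and -0.44 with GAP-2/3. Its change over both arms was -0.42 ± 0.10 (limma adjusted p = 0.0112), and the adjusted p was 0.0636 without GAP-scr replicate B. Zfp653 changed by -0.40 (adjusted p = 0.0127), and its adjusted p was 0.0502 without GAP-2 replicate B. Zfp341, whose human counterpart drives transcription of STAT3, had 1.66 and 1.32 FPKM in GAP-2 and 1.10 and 1.34 FPKM in GAP-2/3, against 2.21 and 1.75 FPKM in GAP-scr libraries. Its adjusted p of 0.0441 rose to as much as 0.207 when 1 library was left out. Zfp568, which represses a placental Igf2 transcript in mouse embryos, had 17.2 and 17.5 FPKM in GAP-2 and 18.5 and 19.3 FPKM in GAP-2/3, against 22.4 and 22.3 FPKM in GAP-scr libraries. Its replicates were close, and its change of -0.29 ± 0.09 had an adjusted p of 0.031, or up to 0.111 with 1 library left out. Zfp628 and Zfp579 changed by -0.37 and -0.32 and also lost their calls in such fits.

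The genes were next taken by their known roles, beside the background of 24.5% of all tested genes higher and 9.57% lower over both arms. Of the 8 Zfp genes listed for imprints and retroelements, 5 were tested, with 3 called higher and 1 lower over both arms and a median change of 0.54 beside 0.10 for all tested genes. Besides Zfp932 and Zfp568 these were Zfp445 and Zfp57, which protect imprinted methylation, and Zfp809, which silences retroviruses through their primer binding site. Zfp445 had 16.5 and 18.6 FPKM in GAP-2 and 23 and 21.5 FPKM in GAP-2/3, against 14.4 and 12.2 FPKM in GAP-scr libraries, a change of 0.54 ± 0.11 (limma adjusted p = 0.00354). Zfp809 had 5.53 and 6.99 FPKM in GAP-2 and 6.47 and 6.51 FPKM in GAP-2/3, against 4.74 and 3.41 FPKM in GAP-scr libraries. All 4 knock-down libraries were above the controls, but the adjusted p of 0.00918 was 0.0671 without GAP-scr replicate B. Zfp57 had 7.45 and 10.3 FPKM in GAP-2 and 12.4 and 12.7 FPKM in GAP-2/3, against 9.58 and 11 FPKM in GAP-scr libraries. Its GAP-2 and GAP-scr libraries overlapped, and both GAP-2/3 libraries lay above them. The change over both arms was 0.03 (adjusted p = 0.89). It was -0.21 with GAP-2 and 0.26 with GAP-2/3, and neither passed.

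Of 11 Zfp genes listed for RNA decay, RNA binding and translation, 10 were tested, with 2 higher and 1, Zfp598, lower. The background was 24.5% of all tested genes higher and 9.57% lower. The list's median change was 0.05, below the 0.28 of all Zfp genes. Zfp326, part of a complex that couples transcription elongation to splicing, had 16.6 and 16.6 FPKM in GAP-2 and 21.4 and 20 FPKM in GAP-2/3, against 12.3 and 11.3 FPKM in GAP-scr libraries, a change of 0.61 ± 0.10 (limma adjusted p = 0.00116). Zfp36, or tristetraprolin, which triggers decay of messages with AU-rich elements, had 10.5 and 7.85 FPKM in GAP-2 and 11 and 15.3 FPKM in GAP-2/3, against 8.85 and 5.73 FPKM in GAP-scr libraries. Its GAP-2 and GAP-scr libraries overlapped, and both GAP-2/3 libraries lay above them. The change over both arms was 0.55 (adjusted p = 0.0308). Without GAP-scr replicate B it was 0.27, and the call was lost. Zfp106, an RNA-binding protein needed for neuromuscular function in mice, and Zfp622, a factor of ribosome maturation, changed by -0.15 and 0.06 and did not pass. Neither did Zfp346, Zfp593, Zfp706 and Zfp830.

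Among 18 developmental regulators, 13 were tested and 6 were higher over both arms, beside 42.4% of all Zfp genes and 24.5% of all tested genes. Their median change was 0.20, against 0.28 for all Zfp genes and 0.10 for all tested genes. Zfp503, a corepressor that acts in the developing brain, had 4.96 and 4.46 FPKM in GAP-2 and 4.17 and 4.16 FPKM in GAP-2/3, against 3.23 and 2.79 FPKM in GAP-scr libraries, and changed by 0.44 ± 0.11 (limma adjusted p = 0.00976). Zfp410, an activator of the chromatin remodeller gene Chd4, had 16.9 and 16.6 FPKM in GAP-2 and 17.3 and 17.6 FPKM in GAP-2/3, against 13.2 and 12.8 FPKM in GAP-scr libraries, and changed by 0.37 ± 0.09 (adjusted p = 0.0118). Both arms lay clear of the controls in these 2 genes. The change was 0.51 with GAP-2 and 0.37 with GAP-2/3 for Zfp503, and 0.34 and 0.40 for Zfp410. Zfp281, a regulator of pluripotency genes, changed by 0.42, Zfp148 by 0.35, Zfp462 by 0.33 and Zfp260 as given above. Of these, Zfp281, Zfp148 and Zfp462 lost their calls without at least 1 of the libraries, with adjusted p of 0.0631 for Zfp281 and up to 0.118 for Zfp462, and Zfp503 had an adjusted p of 0.051 under quantile normalization. Zfp143, Zfp217, Zfp219, Zfp335, Zfp697, Zfp703 and Zfp746 did not pass over both arms, although Zfp703 passed with GAP-2 (0.36, adjusted p = 0.0429). Zfp451, a SUMO ligase, and Zfp91, a ubiquitin ligase, changed by 0.15 and 0.36 and did not pass.

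The 8 most abundant Zfp genes, Zfp207, Zfp106, Zfp706, Zfp622, Zfp91, Zfp664, Zfp740 and Zfp260, held 1 call over both arms, that of Zfp260. Over all tested genes 24.5% were called higher and 9.57% lower. Zfp207, which helps load the checkpoint protein Bub3 onto kinetochores, had 90.0 and 97.0 FPKM in GAP-2 and 126 and 108 FPKM in GAP-2/3, against 84.5 and 94.7 FPKM in GAP-scr libraries. GAP-2 and GAP-scr overlapped, and the change passed only with GAP-2/3 (0.38 ± 0.12, limma adjusted p = 0.0239). Zfp706 had 48.9 and 49.0 FPKM in GAP-2 and 45.3 and 46.2 FPKM in GAP-2/3, against 47.7 and 44.5 FPKM in GAP-scr libraries, and its change was 0.04 ± 0.09.

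The cofactors through which KRAB proteins act were listed as 30 genes, of which 28 were tested. Over both arms 7 of the 28 were higher, a share near the 24.5% of all tested genes. The list's median change was 0.01, below the 0.10 of all tested genes. Trim28 had 65.8 and 62.9 FPKM in GAP-2 and 56.2 and 63.6 FPKM in GAP-2/3, against 62.4 and 80.2 FPKM in GAP-scr libraries, a change of -0.19 ± 0.11 that did not pass (limma adjusted p = 0.214). Setdb1 changed by 0.07 (adjusted p = 0.696). The members called higher included the heterochromatin protein gene Cbx3 at 0.61, the SUMO gene Sumo2 at 0.57 and the deacetylase genes Hdac2 and Hdac1 at 0.46 and 0.36; the last 2 lost their calls without 1 or more libraries. Other groups of zinc finger genes were set beside the numbered Zfp genes and the background of 24.5% of all tested genes higher and 9.57% lower. Of 21 Zfp genes with a letter after the number, 11 were higher and 2 lower, with a median of 0.35. Of 16 Zscan and Zkscan genes, 4 were higher, a share near the background, with a median of 0.25. Of 36 Zbtb genes, 7 were higher and 2 lower, with a median of 0.13. Of 18 tested Klf and Sp genes 3 were higher and 1 lower, with a median of 0.04. In these last 2 groups the share called higher was below the background. With GAP-2/3 against GAP-scr, 10 of the 16 Zscan and Zkscan genes were higher and 0 lower, with a median of 0.45. Of the 21 lettered Zfp genes 14 were higher and 2 lower there, with a median of 0.46. The Zbtb genes had 11 higher and 3 lower (median 0.19), and the Klf and Sp genes 4 and 2 (median -0.08). The background in that arm was 28% of all tested genes higher and 11.3% lower. No test compared these groups with one another.

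The calls were unevenly spread over the chromosomes, a division made after the values had been seen. Chromosome 17 held 34 of the Zfp genes, of which 25 (73.5%) were higher and 2, Zfp598 and Zfp523, lower over both arms. Their median change was 0.45, while the 498 other tested genes of that chromosome had a median of 0.00 and 17.1% called higher. On all other chromosomes 78 of 209 Zfp genes (37.3%) were higher and 5 lower, with a median of 0.23. Chromosome 7, with 59 Zfp genes the richest, had 16 higher and 3 lower and a median of 0.18, against a median of -0.02 and 15.2% higher for its other genes. On chromosome 5, 9 of 14 were higher (median 0.40), beside 21.8% of its other genes (median 0.07). On chromosome 13, 8 of 12 were higher (median 0.37), where the other genes had 32.8% higher and a median of 0.20. The 4 Zfp genes of chromosome 3 had a median of -0.04 and none was past the threshold, against a median of 0.21 and 36.8% higher for its other genes. The chromosome 17 count of higher genes was 25 with GAP-2/3 and 12 with GAP-2 against GAP-scr. Over both arms it was 15 when either GAP-2/3 replicate A or GAP-scr replicate B was left out, and 13 under quantile normalization. For GAP-2/3 it was 5 without GAP-2/3 replicate A, and for GAP-2 it ran from 18 without GAP-scr replicate A to 2 without GAP-scr replicate B.

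**Figure D3:**
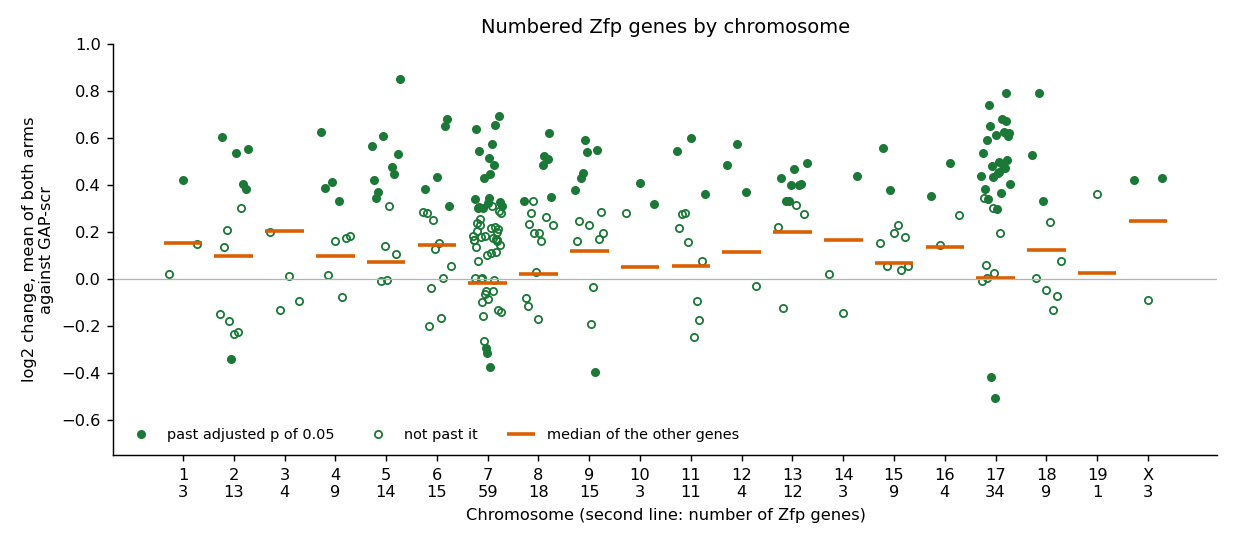
Log2 change over both arms against GAP-scr of each numbered Zfp gene, by chromosome, with filled circles past an adjusted p of 0.05 and open circles not past it; the orange line is the median of the other tested genes of the chromosome. Most points of chromosome 17 lie above its line at 0.00, with a median of 0.45, and its 2 lower genes stand apart at -0.51 and -0.42.

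Position within the chromosome was taken from the gene order of RefSeq in GRCm38.p6, counting neighbouring protein-coding genes with zinc finger symbols as a run. Zinc finger symbols were those starting with Zfp, Zscan, Zkscan, Zbtb, Rsl, Rbak or Zik. A zinc finger gene under another symbol, such as Gm, ended a run, so a gene counted as alone can still lie in a cluster. Of the 243 Zfp genes, 114 stood alone, 33 were in runs of 2 and 93 in runs of 3 or more, and 3 were not placed. Over both arms 43 of those alone (37.7%) were higher and 6 lower, with a median of 0.20. In runs of 3 or more 46 (49.5%) were higher and 1 lower, with a median of 0.31. Chromosome 17 was then set apart. In its runs of 3 or more, 21 of 25 Zfp genes (84%) were higher, with a median of 0.48, whereas 25 of 68 (36.8%) were higher in such runs elsewhere, with a median of 0.27. Of the 8 counted as alone on chromosome 17, 3 were higher and 2 lower. The 3 higher were Zfp160, Zfp945 and Zfp40, and the 2 lower were Zfp598 and Zfp523. All of these came next to a gene of a run in the order of the Zfp genes. So did Zfp414 and Zfp318, which were not called. Zfp54, Zfp51, Zfp53, Zfp52 and Zfp948 formed 1 run with 5 of 5 higher and changes between 0.43 and 0.74. Zfp760, Zfp229, Zfp942, Zfp943 and Zfp947 formed another with 5 of 5 higher, between 0.30 and 0.68, and in the run of Zfp944, Zfp758 and Zfp946 3 of 3 were higher, between 0.61 and 0.79. On chromosome 7 a run of 15, from Zfp84 to Zfp146, had 3 higher and 1 lower with a median of 0.23, and on chromosome 6 the 6 Zfp genes of a run that includes Zfp398 and Zfp746 changed by -0.20 to 0.29 with no call. Genes of a run can be near-identical copies, and the sources used here do not say how reads that match several copies were assigned, so values of neighbours in a run are uncertain and may share reads.

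**Figure D4:**
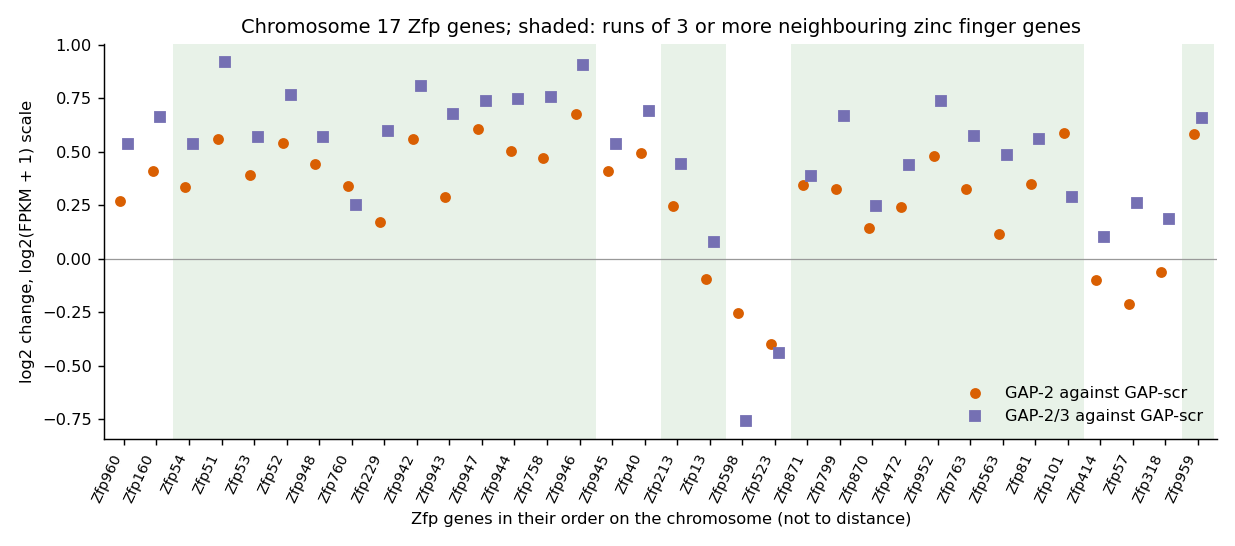
Log2 change of the 34 numbered Zfp genes of chromosome 17 in their order along the chromosome, for GAP-2 (circles) and GAP-2/3 (squares) against GAP-scr, with runs of 3 or more neighbouring zinc finger genes shaded. Squares lie above circles for most genes, the shaded genes are mostly between 0.25 and 0.92 with GAP-2/3, and Zfp598 and Zfp523 are the 2 genes below 0 in both arms by more than 0.25.

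Zfp51 had 6.70 and 6.68 FPKM in GAP-2 and 10 and 7.86 FPKM in GAP-2/3, against 4.69 and 3.79 FPKM in GAP-scr libraries, a change of 0.74 ± 0.12 (limma adjusted p = 0.00139). Zfp946 had 3.64 and 4.66 FPKM in GAP-2 and 5.45 and 4.60 FPKM in GAP-2/3, against 2.86 and 1.66 FPKM in GAP-scr libraries, a change of 0.79 ± 0.15 (adjusted p = 0.00317). Zfp942 had 5.61 and 6.86 FPKM in GAP-2 and 8.36 and 6.83 FPKM in GAP-2/3, against 4.74 and 3.17 FPKM in GAP-scr libraries, a change of 0.68 ± 0.14 (adjusted p = 0.00487). In these 3 genes the knock-down libraries lay above the controls, and the GAP-scr libraries differed from each other by more FPKM than the GAP-2 libraries did. Zfp947 was low throughout, at 1.09 and 1.34 FPKM in GAP-2 and 1.51 and 1.33 FPKM in GAP-2/3, against 0.483 and 0.423 FPKM in GAP-scr libraries. Its libraries were well apart, and its change was 0.67 ± 0.11 (adjusted p = 0.00124).

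RefSeq promoters in GRCm38.p6, running from 250 bases before to 50 after a transcript start, were matched for 198 of the 243 Zfp genes (245 promoters) and for 8625 other tested genes (11050 promoters). Zfp promoters had a median GC content of 56.3% and 16 CG pairs, against 61.3% and 21 in the other promoters. Those of Zfp genes called higher over both arms had 54% and 13, against 58.8% and 18 in the promoters of the remaining Zfp genes. The promoters of 3 chromosome 17 genes with high changes share the letters CACGTGACC, shown in capitals below; these contain the E-box CACGTG and were singled out after the promoters had been read. Zfp946 lies on the + strand at chr17:22423952-22424251, Zfp942 on the - strand at chr17:21962415-21962714 and Zfp947 on the - strand at chr17:22165928-22166227. Each sequence is given 5′ to 3′ along its gene's strand.
Zfp946: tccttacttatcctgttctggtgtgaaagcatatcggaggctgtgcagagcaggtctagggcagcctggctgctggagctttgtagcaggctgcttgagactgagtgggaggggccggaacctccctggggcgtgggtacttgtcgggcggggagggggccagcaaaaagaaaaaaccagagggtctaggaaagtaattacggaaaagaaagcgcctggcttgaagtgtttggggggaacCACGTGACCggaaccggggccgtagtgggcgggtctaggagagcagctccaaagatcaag
Zfp942: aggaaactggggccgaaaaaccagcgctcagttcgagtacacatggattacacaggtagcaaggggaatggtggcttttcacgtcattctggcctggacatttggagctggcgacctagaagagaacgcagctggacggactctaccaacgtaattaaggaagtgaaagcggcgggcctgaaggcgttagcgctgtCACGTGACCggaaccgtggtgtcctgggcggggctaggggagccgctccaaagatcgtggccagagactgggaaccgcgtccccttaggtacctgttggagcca
Zfp947: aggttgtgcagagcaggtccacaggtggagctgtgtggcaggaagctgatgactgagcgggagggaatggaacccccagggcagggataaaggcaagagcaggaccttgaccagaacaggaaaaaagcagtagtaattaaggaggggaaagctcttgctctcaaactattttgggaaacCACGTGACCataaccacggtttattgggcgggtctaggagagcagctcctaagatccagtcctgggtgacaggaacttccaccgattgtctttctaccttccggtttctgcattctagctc

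On either strand, CACGTGACC was found in 8 of the 245 Zfp promoters (3.27%), in 2.34% of the promoters of other tested genes and in 1.11% of all 32851 promoters of the table. The 8 genes were Zfp946, Zfp942, Zfp947, Zfp944, Zfp758, Zfp943, Zfp292 and Zfp207, and all but Zfp207 were called higher over both arms. Of the 190 Zfp genes with a promoter but without these letters, 80 were called higher. The letters were picked from Zfp946, Zfp942 and Zfp947, genes with high changes, so these counts do not test them. The first 6 lie in 2 of the runs of chromosome 17 described above. Those runs also hold Zfp760 and Zfp229, called higher but not among the 8. The first 6 made up 26.1% of the 23 Zfp genes with a promoter in chromosome 17 runs of 3 or more. The letters were in 2 of 175 other Zfp genes (1.14%) and in 18 of 421 other tested genes of that chromosome (4.28%). The 6 genes are neighbours, and sequence shared between their promoters beyond the motif was not tested. The E-box letters CACGTG alone were in 6.53% of Zfp promoters, below the 10.3% of the promoters of other tested genes. Most Zfp genes lack CACGTG: it was absent in 182 of the 198 with a promoter, and 77 of these 182 were called higher over both arms. The promoter of the lowest Zfp gene, Zfp598, at chr17:24669437-24669736 on the + strand, is also shown and has no CACGTG.
Zfp598: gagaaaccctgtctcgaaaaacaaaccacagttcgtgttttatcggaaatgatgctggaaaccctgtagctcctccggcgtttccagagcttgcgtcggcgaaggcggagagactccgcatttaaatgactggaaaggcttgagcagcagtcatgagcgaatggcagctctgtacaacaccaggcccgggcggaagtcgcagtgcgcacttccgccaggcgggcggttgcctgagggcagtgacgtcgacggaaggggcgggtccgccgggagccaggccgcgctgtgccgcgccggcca

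The motif bound by Zfp143 and its relatives, GGAAATGTAGT with any base accepted at the fifth letter, was in 27 of the 245 Zfp promoters (11%), against 2.01% of the promoters of other tested genes and 1.02% of all promoters of the table, on either strand. Of the 27 genes with it, 10 (37%) were higher over both arms, and their median change was 0.29, beside 0.28 for the 171 without it. The sites of the 3 with the highest changes, Zfp260 (chr7:30095038-30095068, + strand), Zfp189 (chr4:49521145-49521175, + strand) and Zfp2 (chr11:50916157-50916187, - strand), are shown with the motif in capitals, and their flanks differ.
Zfp260: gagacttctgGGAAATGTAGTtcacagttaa
Zfp189: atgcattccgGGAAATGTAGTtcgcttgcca
Zfp2: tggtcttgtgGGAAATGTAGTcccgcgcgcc

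Zfp189 had 4.37 and 4.51 FPKM in GAP-2 and 6.52 and 5.72 FPKM in GAP-2/3, against 3.00 and 3.07 FPKM in GAP-scr libraries, a change of 0.62 ± 0.10 (limma adjusted p = 0.00155). Zfp2 had 2.25 and 2.39 FPKM in GAP-2 and 3.41 and 2.35 FPKM in GAP-2/3, against 1.43 and 1.47 FPKM in GAP-scr libraries, a change of 0.54 ± 0.12 (adjusted p = 0.0072). In both genes the knock-down libraries were all above the controls. Zfp143 itself had 16.7 and 14.9 FPKM in GAP-2 and 11 and 11 FPKM in GAP-2/3, against 15.7 and 11 FPKM in GAP-scr libraries. Its control libraries spanned most of that range, and its change over both arms was 0.00 ± 0.13 (adjusted p = 0.987). Other motifs searched on both strands were CCAAT of NF-Y, in 46.5% of Zfp promoters against 37.7% of those of other tested genes, and GGGCGG of Sp1, in 47.3% against 64.6%. CGCATGCG of Nrf1 was in 5.71% against 4.03%, CCGGAAGT of Ets factors in 10.6% against 8.5%, ATGGCGGC of Yy1 in 6.94% against 5.13% and TATAAA in 7.35% against 6.9%. A match of letters is a description and not a bound site.

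The second assay of the series, ChIRP-seq, sequenced the DNA that came down with Charme on tiling probes, from 1 library per probe set, and the authors deposited 798 merged peaks with a score each. Of the 243 Zfp genes 1 (0.412%) overlapped a peak by at least 1 bp, against 191 of the 10950 tested genes with a position (1.74%), and the number was still 1 when genes were extended by 10 kb. The gene was Zfp398 and the peak chr6:47843321-47843526, 206 bp long, with a score of 1450.1 that placed it 685th of 798, below the median score of 2913.2. Zfp398 had 1.55 and 1.5 FPKM in GAP-2 and 2.30 and 2.28 FPKM in GAP-2/3, against 1.28 and 1.57 FPKM in GAP-scr libraries. It was above the other groups only in GAP-2/3, with a change of 0.44 ± 0.12 there (limma adjusted p = 0.0158) and 0.25 over both arms (adjusted p = 0.0889). None of the 103 Zfp genes called higher over both arms and none of the 7 called lower had a peak over its span.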

How the data were processed

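Polyadenylated RNA was sequenced from 2 GAP-2, 2 GAP-2/3 and 2 GAP-scr myotube libraries with a TruSeq stranded kit, per the labels' protocols. The authors deposited expression as FPKM, a normalized unit in 1 table with a column per library, and ChIRP-seq peaks with a score each. The submitters' processing notes name TopHat2, Cufflinks, Cuffdiff, Bowtie2 and MACS, without roles or versions, and the build mm9; the peak positions are taken as GRCm38, since 1 lies beyond the end of the mm9 chromosome X, a length known in general. Depth is unknown, because FPKM does not keep it, so no count test, interval or floor is given, and the sources used here do not say how the table was filtered.

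The members and gene lists were chosen with earlier results of these data known. Values entered the fit as log2(FPKM + 1), unscaled, for genes averaging 1 FPKM or more (10993). A single limma model (3.58.1, R 4.3.3) held all 3 groups, with an intensity trend and without covariates, which gives them a common estimate of the spread. Benjamini-Hochberg adjustment ran over all 10993 genes at a threshold of 0.05. A lone library, where its replicate was left out, is assumed to vary like the others. The genes named were the 12 highest and up to 12 lowest changes past the threshold over both arms, up to 5 in each direction for the other comparisons, the 8 most abundant, the role lists, up to 4 of each list of other genes and any gene under a peak; others were named after their values were seen. The fit was tested on simulated data in which 200 of 10993 genes changed: comparing both arms with GAP-scr, it recovered 89% of the changes of 1 and 32% of the changes of 0.5 (log2), and called 2 unchanged genes.

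RefSeq annotation and promoters of GRCm38.p6 matched 239 Zfp genes by symbol and 4 by an older symbol, and Python 3.11.15 was used for these steps. KRAB boxes and finger numbers in the proteins were not analysed here. The replicate letters are shared between groups, and the labels do not say that they pair the libraries. Alternatives were another pseudocount or filter, 2 scalings, no trend, a block, a threshold of 0.1, only the groups compared, other windows and peak rules, and each library left out; leaving out both libraries high in Rn45s was also run, and the chromosome 17 counts were added after seeing the data.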

Additional observations from a re-analysis of the deposited data

Results flagged for a closer look

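In 16 of the 243 numbered Zfp genes (6.58%) GAP-2/3 differed from GAP-2 by a direct test (limma, adjusted p under 0.05). Among the other tested genes the share was larger, at 10.2%. Of the 16 Zfp genes, 15 were higher with GAP-2/3. The differences on the log2(FPKM + 1) scale were 0.64 for Zfp422, 0.61 for Zfp862, 0.61 for Zfp629, 0.55 for Zfp637, 0.52 for Zfp715 and 0.51 for Zfp35. They were 0.49 for each of Zfp266, Zfp46 and Zfp719, 0.48 for Zfp658 and 0.47 for Zfp764. Zfp1, Zfp367 and Zfp644 differed by 0.45 and Zfp932 by 0.44. Zfp598 differed by -0.50 and was the 1 gene lower with GAP-2/3.

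In these genes both GAP-2/3 libraries lay clear of both GAP-2 libraries. Zfp46 had 7.18 and 7.68 FPKM in GAP-2/3, against 4.89 and 5.10 FPKM in GAP-2 libraries, and Zfp764 had 1.49 and 1.80 FPKM in GAP-2/3, against 0.903 and 0.917 FPKM in GAP-2 libraries. For Zfp422, Zfp629, Zfp46 and Zfp764 the change over both arms against GAP-scr did not pass, while the change of GAP-2/3 against GAP-scr did. The share of Zfp genes called higher here was close to that of all tested genes, as given above.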

How the results depend on the processing

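No median over the Zfp genes changed sign, nor did any named gene that was called as reported or under the alternative. Other Zfp genes did: positive changes over both arms numbered 198, but 171 under quantile normalization and 180 under one median per library, and with GAP-2 180, but 149 and 161. Zfp counts below are of genes called in either direction. Other scalings moved the median change of all genes over both arms from 0.10 to 0.00 (quantile normalization) or 0.02 (one median per library), and changes are best read relative to it. Over both arms, calls then numbered 63 (50 higher, all among the 103, and 13 lower; all genes 1568 and 1695) or 84 (73 and 11; 1618 and 1556), beside 2698 and 1052 for all genes as reported, with Zfp medians of 0.12 and 0.20. With GAP-2 they numbered 8 (4 higher, 4 lower) and 15 (12 and 3), medians 0.093 and 0.14; the higher share, 1.65% or 4.94%, was then below that of all genes, 6.29% or 6.44%. GAP-2/3 medians were 0.17 and 0.25. Between the arms, calls numbered 10 and 8, with a median of 0.13 under quantile normalization. The higher share there was 2.88% under each scaling, beside 4.48% and 4.22% of all genes.

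A pseudocount of 0.1 gave medians of 0.35 over both arms, 0.25 with GAP-2 and 0.43 with GAP-2/3. At least 5 FPKM, which leaves 116 Zfp genes, gave 54, 23 and 57 calls, and 9 between the arms. Without both libraries high in Rn45s the medians were 0.33 over both arms and 0.25 with GAP-2, and 6 genes differed between the arms. With only the groups compared, calls numbered 12 for GAP-2 and 39 between the arms, and at a threshold of 0.1, 63 and 36. With 1 library left out, calls ranged from 60 to 110 over both arms, 0 to 66 with GAP-2, 39 to 127 with GAP-2/3 and 0 to 39 between the arms, while the medians stayed within 0.24 to 0.31, 0.14 to 0.21, 0.33 to 0.37 and 0.14 to 0.20. With FPKM windows of equal numbers of Zfp genes the median excess over other genes was 0.16, as with the fixed windows. Keeping the peaks at or above the median score left 0 Zfp genes under a peak. The causes of these shifts were not tested.

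Deviations of replicate A correlated at 0.36 between GAP-scr and GAP-2, -0.131 between GAP-scr and GAP-2/3 and -0.181 between GAP-2 and GAP-2/3. Replicate A of GAP-scr and of GAP-2 were also the libraries high in Rn45s. Whether they share a batch was not tested. As a block the replicate letters gave 116 calls over both arms, 48 with GAP-2, 124 with GAP-2/3 and 25 between the arms. The fit as reported gave 110, 36, 124 and 16. Of the alternatives for named genes, 1119 left the call as it was, 149 lost it and 3 gained it.

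With 2 libraries a group and FPKM without depth, small changes of weakly expressed genes are at the limit of these data.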

Other observations

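Among the families set beside the numbered Zfp genes, single genes moved as far as the members did. Zbtb6, a BTB zinc finger gene, had 7.28 and 7.45 FPKM in GAP-2 and 9.84 and 9.95 FPKM in GAP-2/3, against 4.71 and 3.79 FPKM in GAP-scr libraries, a change of 0.87 ± 0.11 (SE; limma adjusted p = 0.000235). Zkscan8 changed by 0.73 and Zkscan3 by 0.55. Sp7, or osterix, a regulator of bone-forming cells, had 11.3 and 11.3 FPKM in GAP-2 and 7.24 and 9.05 FPKM in GAP-2/3, against 3.59 and 3.85 FPKM in GAP-scr libraries, a change of 1.17 ± 0.11 (adjusted p = 3.54e-05). Both GAP-2 libraries lay above both GAP-2/3 libraries, and the difference of GAP-2/3 against GAP-2, -0.44, did not pass (adjusted p = 0.0536). Zfp36l2, a relative of Zfp36 with a letter after the number, had 69.4 and 71.0 FPKM in GAP-2 and 76.7 and 70.0 FPKM in GAP-2/3, against 50.8 and 51.5 FPKM in GAP-scr libraries.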
